A study of Homo sapiens with 3 samples.

Results

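The genes described here are 53 cell cycle and DNA replication genes, taken as a named list split by role into 15 replication genes, 22 cyclin/CDK genes and 16 mitosis genes. The probe set with the highest mean log2 signal, among those annotated to the symbol alone, stood for each gene. This gave values for 52 of the 53 genes, out of 19775 genes in all. CDKN2C had no such probe set and was not analysed here. RNA came from 3 lines made from HT1080, an established human fibrosarcoma line, with 1 Affymetrix array per line. Zeo is the mock-transfected control, RECK was stably transfected with pZeoSV2(+)-RECK, and RECK/4NQ received the same vector carrying RECK with 4 N-glycosylated asparagines changed to glutamine. All 3 lines were grown in 10% FCS and 50 µg/mL Zeocin, the selection drug. RECK is a membrane-anchored glycoprotein that restrains matrix metalloproteinases. Whether a line is 1 clone or a pool is not given in the sources used here, and with 1 array per line there is no SD, test or p-value, so each value compares 1 array with another.

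A dividing cell licenses its replication origins in G1, when ORC, CDC6 and CDT1 load the MCM helicase onto DNA. D-type and E-type cyclins with their kinases then inactivate RB1 and free E2F factors, which raise the transcription of replication genes. Cyclin B with CDK1, and the kinases of the PLK1 and Aurora families, drive mitosis, whose genes peak later in the cycle under FOXM1 and related factors. In a bulk culture, a lower signal can mean fewer cells in a phase or less transcript per cell, and these cannot be told apart.

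S-phase and G2/M genes are known for different promoter elements, so the stretch upstream of the RefSeq start is shown for 5 members. Of these, MCM6, KIF11, TOP2A and MAD2L1 passed 2-fold in a comparison. PLK1 reached 1.62-fold, and some members with larger folds, such as CDC25C at 1.86-fold, are not shown. MCM6 is a replication gene, and KIF11, TOP2A, MAD2L1 and PLK1 are mitosis genes. The E2F element was searched as TTTNNCGC, the CHR element of G2/M genes as TTTGAA and the NF-Y box as CCAAT, on both strands. Each line gives the 150 bases before the start, 5′ to 3′ on the gene's strand, in GRCh38.p14, with matches in capitals.
MCM6: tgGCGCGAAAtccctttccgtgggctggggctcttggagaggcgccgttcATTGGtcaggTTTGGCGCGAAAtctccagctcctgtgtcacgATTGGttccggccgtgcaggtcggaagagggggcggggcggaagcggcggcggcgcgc
KIF11: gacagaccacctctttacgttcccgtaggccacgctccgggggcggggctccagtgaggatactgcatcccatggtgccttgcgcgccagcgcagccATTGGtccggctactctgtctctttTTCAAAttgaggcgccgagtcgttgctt
TOP2A: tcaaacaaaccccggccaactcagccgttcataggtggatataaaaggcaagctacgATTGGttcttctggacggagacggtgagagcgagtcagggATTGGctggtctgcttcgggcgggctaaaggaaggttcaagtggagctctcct
MAD2L1: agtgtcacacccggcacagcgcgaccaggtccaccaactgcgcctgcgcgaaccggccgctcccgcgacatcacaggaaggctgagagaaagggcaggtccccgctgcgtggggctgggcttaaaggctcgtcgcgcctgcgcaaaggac
PLK1: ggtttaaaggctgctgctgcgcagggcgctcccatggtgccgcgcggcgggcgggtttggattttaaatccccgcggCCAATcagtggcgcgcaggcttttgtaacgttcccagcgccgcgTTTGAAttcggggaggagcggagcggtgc
These stretches lie at chr2:135876444-135876593 on the minus strand for MCM6, chr10:92592980-92593129 on the plus strand for KIF11, chr17:40417897-40418046 on the minus strand for TOP2A, chr4:120066849-120066998 on the minus strand for MAD2L1 and chr16:23678739-23678888 on the plus strand for PLK1. MCM6 held 3 E2F matches, starting 148, 90 and 86 bases before the start, the last 2 overlapping on opposite strands, and 2 NF-Y boxes, at 100 and 58. KIF11 and PLK1 each held a CHR match close to the start, at 28 and 29 bases, with an NF-Y box further out, at 53 and 73. TOP2A held 2 NF-Y boxes, at 93 and 53, and MAD2L1 held no match in its 150 bases.

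Of the 53 members, 43 matched the RefSeq promoter table, with 62 promoters in all because some genes have several starts. MCM4, MCM5, CCND1, CCND2, CCNE2, CDK2, AURKA, BIRC5, FOXM1 and TTK had no entry. In the 250 bases before the start, 44.4% of 18 promoters of replication genes held an E2F match, against 12.9% of 31 for cyclin/CDK genes, 7.69% of 13 for mitosis genes and 5.92% of all 35116 promoters. The CHR match ran the other way, in 53.8% of mitosis promoters, 5.56% of replication promoters, 12.9% of cyclin/CDK promoters and 13.3% of all. An NF-Y box stood in 84.6% of mitosis promoters, 77.8% of replication promoters, 48.4% of cyclin/CDK promoters and 32% of all. A match is a description of the letters and not a mapped binding site.

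**Figure D1:**
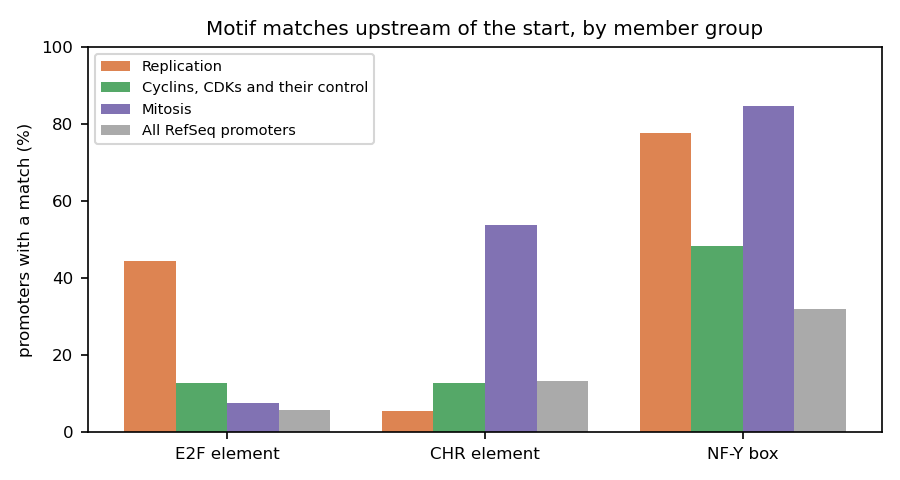
Share of promoters (%, from 0) with at least 1 match to each element in the 250 bases before the RefSeq start, for the 3 member groups and all 35116 promoters. The E2F element is most frequent in replication genes (44.4%) and the CHR element in mitosis genes (53.8%).

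The sum of all signals lay between 11372165 and 12516990, the GAPDH 3' to 5' signal ratio between 0.923 and 0.979 and that of ACTB between 1.28 and 1.36. The RECK array stood apart in its 18 hybridisation control probe sets, whose mean log2 ratio was 0.34 ± 0.17 (SD over probe sets) in RECK against Zeo and 0.39 ± 0.13 in RECK against RECK/4NQ, but -0.05 ± 0.12 in RECK/4NQ against Zeo; its part in the values that were low in RECK was not tested. The RECK gene itself read 264, 387 and 442 by its brightest probe set, and its other 4 probe sets were below 27 on every array; it is unknown here which of them the vector-borne sequence contains, so they do not check the labels. All 8 mesenchymal markers were above the floor of 12.3 on every array (VIM, the intermediate filament vimentin, lay between 10307 and 10704), while 5 of 8 epithelial markers were below it on every array and none was above it on all. Of 5 blood cell markers, CD14 was below the floor on every array and 3 were above it on all, namely CD3E, CD34 and HBB, whose probe set is of a kind prone to cross-hybridise; their part in the results was not tested. The floor is the 40th percentile of all signals, and lower signals were set to it before ratios were taken. The median log2 ratio of the 14282 genes with a mean signal at or above the floor was -0.19 when RECK was set over Zeo, -0.12 when RECK/4NQ was set over Zeo and -0.06 when RECK was set over RECK/4NQ. Ratios are given as deposited, and a relative value has this shift subtracted.

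Cell cycle and replication genes as a whole were close to the rest of the transcriptome in both transfected lines. No member was 2-fold higher in a transfected line than in Zeo, or in RECK than in RECK/4NQ. 5 of 52 differed at least 2-fold in any comparison, and 34 stayed within 1.5-fold in all 3 by their brightest probe set, although 15 of these 34 had another probe set past 1.5-fold. The matching shares of all genes over the 3 comparisons together were not counted, so only the single comparisons below have a background. Between RECK and Zeo, only the topoisomerase gene TOP2A passed 2-fold, and it was lower in RECK; 1.92% of members were lower, against 6.7% of all genes. Between RECK/4NQ and Zeo, the 4 mitosis genes KIF11, TTK, TOP2A and MAD2L1 were lower, which is 7.69% of members against 7.13% of all genes. By role this is 25% of the 16 mitosis members, with 0 replication and 0 cyclin/CDK members lower. Whether the roles differ was not tested. Between RECK and RECK/4NQ, the helicase subunit gene MCM6 alone passed 2-fold and was lower in RECK, 1.92% of members against 4.47% of all genes. For the higher direction, with 0 members in each comparison, the background was 4.03%, 2.81% and 5.76% of all genes. Scaling changed the balance of the background. Among all genes past 2-fold, 37.5% were higher in RECK than in Zeo as deposited and 53.8% after quantile normalisation. For RECK/4NQ against Zeo these shares were 28.3% and 45.9%, so that lower genes stayed in the majority. Median centring, quantile normalisation and a common trimmed mean each took TOP2A below 2-fold in RECK against Zeo, and the last 2 took MCM6 below 2-fold in RECK against RECK/4NQ. In RECK/4NQ against Zeo, median centring took TOP2A and MAD2L1 below 2-fold, at log2 ratios of -0.95 and -0.90, and a floor at the 60th percentile took KIF11 and TTK below it, at -0.44 and -0.31.

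The members' medians lay near those of all genes. The relative median over the 49 members with a mean signal at or above the floor was -0.04 in RECK against Zeo, 0.08 in RECK/4NQ against Zeo and -0.02 in RECK against RECK/4NQ. Of these 49, 22, 32 and 23 lay above the median of all genes. In RECK/4NQ against Zeo that median varied with level. There the 40 members with a mean signal of 100 or more had a median of -0.04, as did all genes of that range. By role, the relative median for RECK over Zeo was -0.11 for replication, 0.01 for cyclin/CDK and -0.03 for mitosis genes. In the same order it was 0.10, 0.07 and 0.10 in RECK/4NQ against Zeo, and -0.00, -0.12 and 0.00 in RECK against RECK/4NQ. The members' own SD of log2 ratios, 0.39, 0.45 and 0.45, was several times these medians.

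**Figure D2:**
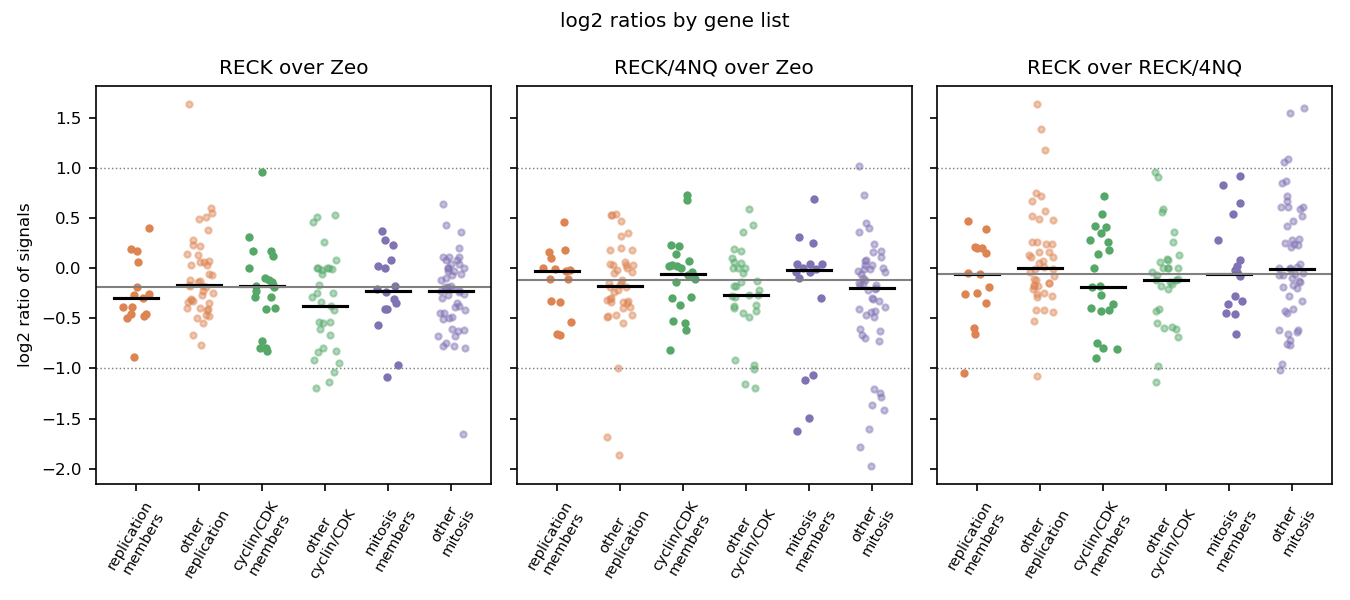
log2 ratio of signals for each gene, by list and comparison; filled points are members, pale points other genes of the pathway, black bars list medians, the grey line the median of all genes and dotted lines 2-fold. The list medians stay near the grey line, and 4 mitosis members lie below -1 for RECK/4NQ over Zeo.

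At 1.5-fold, 1 member was higher and 7 lower in RECK than in Zeo, where 9.37% and 18.4% of all genes passed, so that 1.92% and 13.5% of members stood below both. These shares depend on level. At a mean signal of 100 or more, 0 of 40 members were higher and 3 lower, against 5.25% and 15% of genes of that range. From the floor to 100, 1 of 9 was higher and 4 lower, against 14.9% and 27.5%. In RECK/4NQ against Zeo, 3 were higher and 8 lower, or 5.77% and 15.4% of members against 7.89% and 17.7% of all genes. In RECK against RECK/4NQ, 4 were higher and 8 lower, or 7.69% and 15.4% against 13.6% and 13.3%. CDKN1B, TOP2A and KIF11 were the 3 members lower by 1.5-fold in both transfected lines. Both comparisons share the Zeo array, and the share of all genes lower in both was not counted. The 3 genes are therefore a listing and not a shared response.

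Where 3 signals are listed without names they stand in the order Zeo, RECK, RECK/4NQ. A level applies to its own probe set and is not compared between genes.

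**Figure D3:**
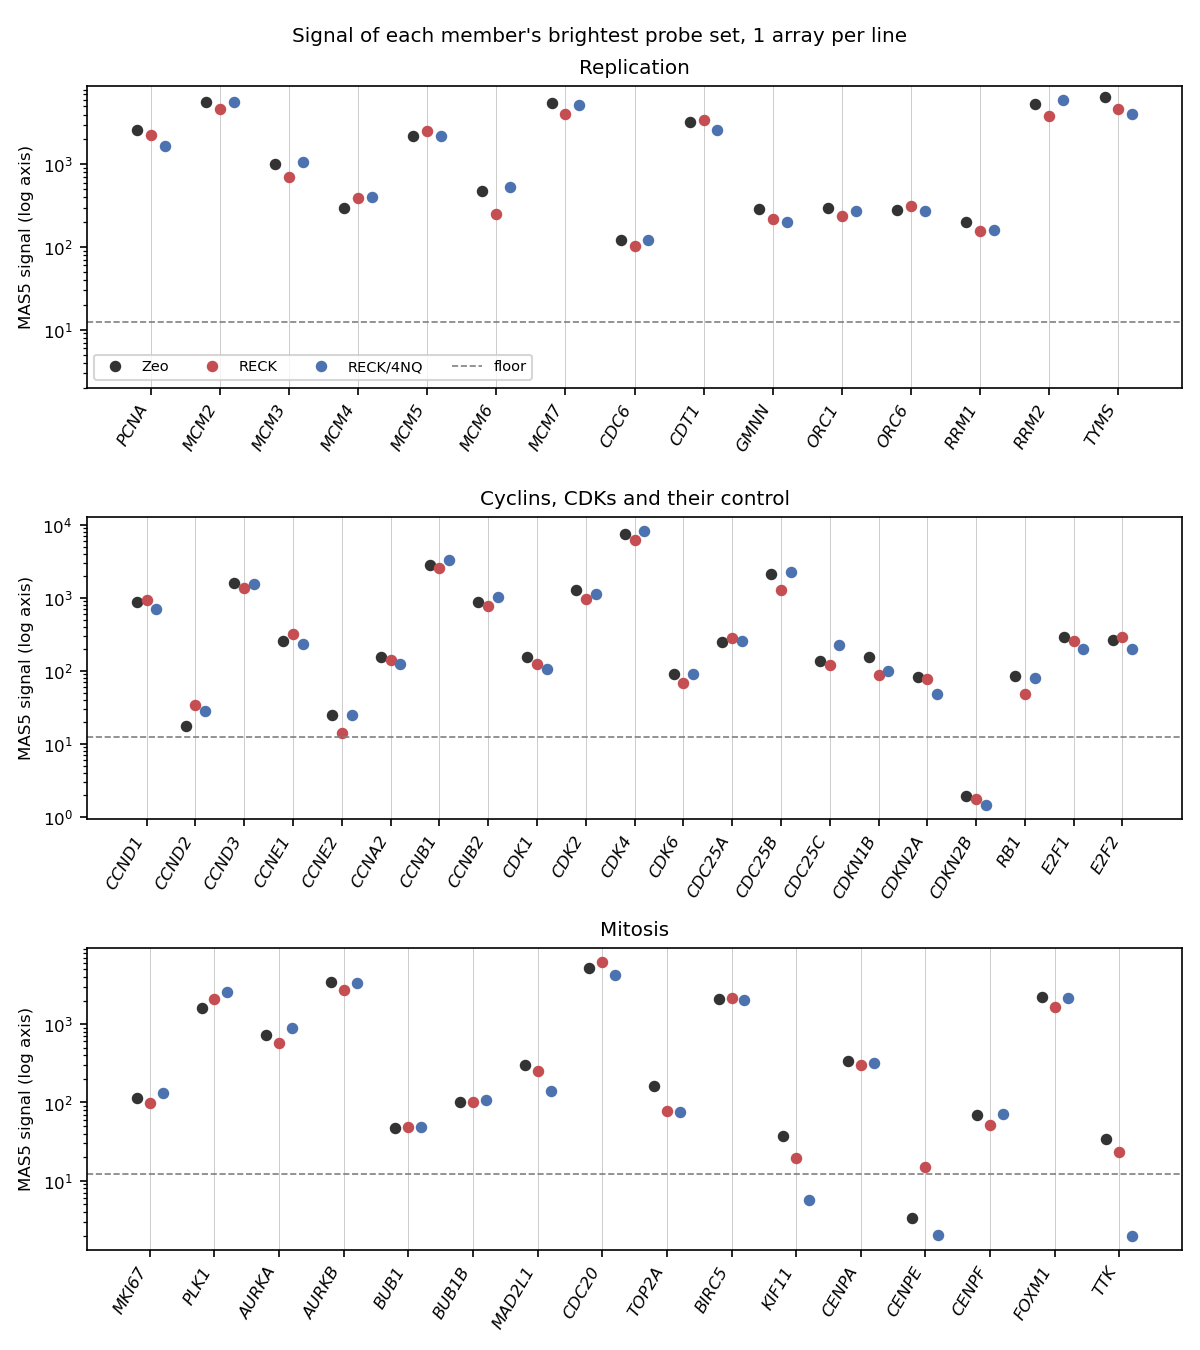
MAS5 signal (log axis) of the brightest probe set of the 52 measured members on the Zeo, RECK and RECK/4NQ arrays, 1 point per array, with the floor of 12.3 dashed. Most triplets lie close together; MCM6 is low in RECK, and KIF11 and TTK are below the floor in RECK/4NQ.

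Among replication genes, the MCM2 to MCM7 subunits of the replicative helicase did not move as 1 block. MCM6 had a signal of 470, 253 and 525. The RECK array was the low one, 1.85-fold below Zeo and 2.07-fold below RECK/4NQ. MCM3 followed the same order at 996, 705 and 1068, 1.52-fold lower in RECK than in RECK/4NQ. MCM4 read 297, 391 and 408 and so was lowest in Zeo. Its other probe sets disagreed, with 253, 228 and 321 for one and 112, 88.7 and 198 for another. MCM2 was at 5668, 4717 and 5592, MCM5 at 2206, 2511 and 2189 and MCM7 at 5575, 4058 and 5176. Over the 6 subunits the mean log2 ratio was -0.25 ± 0.47 (SD over 6 subunits) for RECK over Zeo and 0.10 ± 0.20 in RECK/4NQ against Zeo. RECK over RECK/4NQ gave -0.35 ± 0.44. These means are as deposited, and the medians of all genes were -0.19, -0.12 and -0.06 in the same order. The SD is over genes of 1 array pair and not over replicates. Across the 8 alternative settings the MCM6 log2 ratio of RECK over Zeo ran from -1.09 to -0.71, and that of RECK over RECK/4NQ from -1.07 to -0.18, the latter end when its dim second probe set was averaged in.

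Genes of nucleotide supply and of the replication clamp gave a different order. TYMS, thymidylate synthase, read 6468, 4712 and 4068, 1.59-fold lower in RECK/4NQ than in Zeo. A second TYMS probe set showed the same order at 1385, 960 and 776. PCNA, the sliding clamp, was at 2601, 2276 and 1642, 1.58-fold lower in RECK/4NQ. Zeo was the highest array for both genes. RRM2, the regulated subunit of ribonucleotide reductase, was instead lowest in RECK, at 5322, 3817 and 6022, while its second probe set read 1217, 1107 and 1218. The catalytic subunit gene RRM1 was at 203, 155 and 160.

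The origin licensing genes differed less than 1.5-fold in every pair of arrays. The loaders CDC6 and CDT1 read 123, 102 and 123, and 3271, 3402 and 2599. GMNN, geminin, which holds CDT1 inactive after S phase begins, was at 287, 219 and 198. The origin recognition genes ORC1 and ORC6 were at 293, 238 and 271, and at 278, 313 and 273.

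Of the D-type cyclins, which pair with CDK4 and CDK6, CCND1 read 866, 942 and 709, and CCND3 1582, 1349 and 1541. CCND2 was dim, at 17.6, 34.2 and 28.2, which is 1.94-fold and 1.60-fold above Zeo. Its other probe sets do not share this order: one read 24.7, 9.64 and 7.07. CCND2 therefore has no settled direction here. CDK4 was at 7536, 6171 and 8287, and CDK6 at 89.8, 68.2 and 90.9. By these probe sets both kinases were lowest in RECK and within 1.5-fold. Other CDK6 probe sets disagreed: those at 77.7, 70.1 and 45.4 and at 57.9, 57.8 and 23.7 were lowest in RECK/4NQ, with log2 ratios of -0.77 and -1.29 against Zeo, and a dimmer one at 24.4, 39.0 and 34.9 was lowest in Zeo. A second CCND1 probe set, at 529, 439 and 342, was also past 1.5-fold in RECK/4NQ against Zeo, with a log2 ratio of -0.63.

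CCNE1, an E-type cyclin of the G1/S step, was at 255, 316 and 236, and its partner CDK2 at 1264, 951 and 1144. CCNE2 was dim at 24.6, 14.2 and 24.9, low in RECK, whereas its second probe set was low in RECK/4NQ, at 36.8, 32.1 and 3.42. By their brightest probe sets the later cyclins stayed within 1.5-fold: CCNA2 read 153, 141 and 124, CCNB1 2802, 2543 and 3260 and CCNB2 874, 772 and 1022. A second CCNA2 probe set was highest in Zeo, at 94.7, 58.6 and 56.0, with log2 ratios of -0.69 and -0.76 against it. A second CCNB1 probe set, at 200, 156 and 257, gave -0.72 for RECK over RECK/4NQ. CDK1, the kinase that pairs with them, was at 154, 126 and 106, and a second CDK1 probe set at 74.0, 72.7 and 36.9 was low in RECK/4NQ.

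The CDC25 phosphatases, which remove inhibitory phosphates from CDKs, split. CDC25B, with a single probe set, had signals of 2135, 1288 and 2242. RECK was the low array, 1.66-fold below Zeo and 1.74-fold below RECK/4NQ. CDC25C was high in RECK/4NQ instead, at 137, 122 and 227, which is 1.66-fold above Zeo and 1.86-fold above RECK. Its other probe sets had the same high array, at 47.5, 46.5 and 72.2 and at 2.91, 16.9 and 45.9. CDC25A was at 252, 283 and 257.

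Among the brakes, CDKN1B, which encodes the CDK inhibitor p27, had a signal of 154, 88.2 and 100. Zeo was the high array, and the folds were 1.75 and 1.54 lower. RB1, the pocket protein that holds E2F factors, read 84.7, 47.7 and 80.4, low in RECK by 1.78-fold against Zeo and 1.69-fold against RECK/4NQ. CDKN2A, for p16 and ARF, was at 83.6, 78.0 and 47.4 by a probe set prone to cross-hybridise, and CDKN2B, its neighbour gene, was below the floor on all arrays at 1.90, 1.76 and 1.45. The other CDKN2A probe sets lay at 21.4, 12.5 and 10.6 and at 7.03, 2.69 and 13.1. HT1080 is known as a p16-deficient line; what the brighter CDKN2A probe set detects was not tested. E2F1 read 289, 254 and 200, and E2F2 261, 295 and 202, both within 1.5-fold by these probe sets. A second E2F1 probe set was lowest in RECK instead, at 306, 186 and 241, with a log2 ratio of -0.72 for RECK over Zeo.

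The members furthest from Zeo by fold were 4 mitosis genes: KIF11, TTK and MAD2L1 were lower in RECK/4NQ, and TOP2A was lower in both transfected lines. KIF11, the kinesin that pushes spindle poles apart, had signals of 37.7, 19.3 and 5.70. The last is below the floor, so RECK/4NQ was at least 3.08-fold below Zeo, and RECK was 1.96-fold below it. TTK, the checkpoint kinase MPS1, read 34.4, 23.2 and 1.97, at least 2.81-fold lower in RECK/4NQ than in Zeo. Both genes were dim on every array and had 1 probe set each.

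MAD2L1, the spindle checkpoint protein MAD2, had a signal of 299, 254 and 142. RECK/4NQ was the low array, 2.10-fold below Zeo and 1.78-fold below RECK. A second probe set kept this order at 115, 98.9 and 83.5, and another, dim, did not, at 11.8, 11.6 and 17.3, which reversed the direction when shared probe sets were left out. TOP2A, which untangles sister DNA, read 164, 76.9 and 75.6, so that both transfected lines were low, by 2.13-fold and 2.17-fold. A second TOP2A probe set was also highest in Zeo, at 18.4, 9.46 and 13.3, but another read 1.65, 19.0 and 22.9, and the mean of all 3 reversed the direction in both comparisons.

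2 mitotic kinase genes were instead highest in RECK/4NQ. PLK1, the Polo kinase, with a single probe set, read 1597, 2061 and 2583, and RECK/4NQ was 1.62-fold above Zeo. AURKA, the centrosomal Aurora kinase, was at 730, 574 and 905, and its other probe sets at 476, 412 and 735 and at 37.4, 38.9 and 85.4 also had RECK/4NQ as the high array. AURKB, the Aurora kinase of the chromosomal passenger complex, was at 3421, 2752 and 3334 (a second, dimmer probe set was lowest in RECK/4NQ, with a log2 ratio of -0.78 against Zeo), and its partner BIRC5, survivin, at 2065, 2181 and 2056. CDC20, an activator of the anaphase-promoting complex, read 5265, 6196 and 4273, high in RECK.

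The remaining mitosis genes stayed within 1.5-fold by their brightest probe set. MKI67, the proliferation marker Ki-67, was at 113, 97.2 and 134, and its 3 other probe sets did not agree on the highest array. BUB1 and BUB1B, kinetochore checkpoint genes, were at 47.8, 48.3 and 49.0, and at 102, 102 and 106. FOXM1, the transcription factor of G2/M genes, was at 2215, 1671 and 2152, CENPA, the centromeric histone, at 337, 298 and 315, and CENPF at 69.2, 52.2 and 71.1. CENPE, a kinetochore kinesin, was below the floor in Zeo and RECK/4NQ and at 14.9 in RECK.

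With no replicates, the yardstick for a ratio was how widely the ratios of 1000 genes of similar signal scattered; this scatter mixes real differences with noise. For RECK over Zeo, 0 of 49 members stood more than 2 such spreads away on either side of the median of all genes, where 4.61% of 14282 genes lay above and 3.2% below. For RECK/4NQ over Zeo, PLK1 lay 3.18 spreads above, where 0.777% of all genes passed 3. TYMS (-2.59), MAD2L1 (-2.51), PCNA (-2.13) and TOP2A (-2.13) lay over 2 spreads below. Of all genes, 3.64% lay over 2 spreads above and 3.17% below. The median of all genes varied with level here, at -0.04 for a mean signal of 100 or more and -0.23 from the floor to 100. Distances from these medians were not computed, so a value near a limit depends on the centre used. For RECK over RECK/4NQ, MAD2L1 was at 2.05, MCM6 at -2.24 and CDC25B at -2.10, where 4.23% and 3.22% of all genes passed. KIF11 was at -1.51 in RECK/4NQ against Zeo, which is a bound because its RECK/4NQ signal lay below the floor, and TTK, with a mean signal under the floor, was not among the 49.

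**Figure D4:**
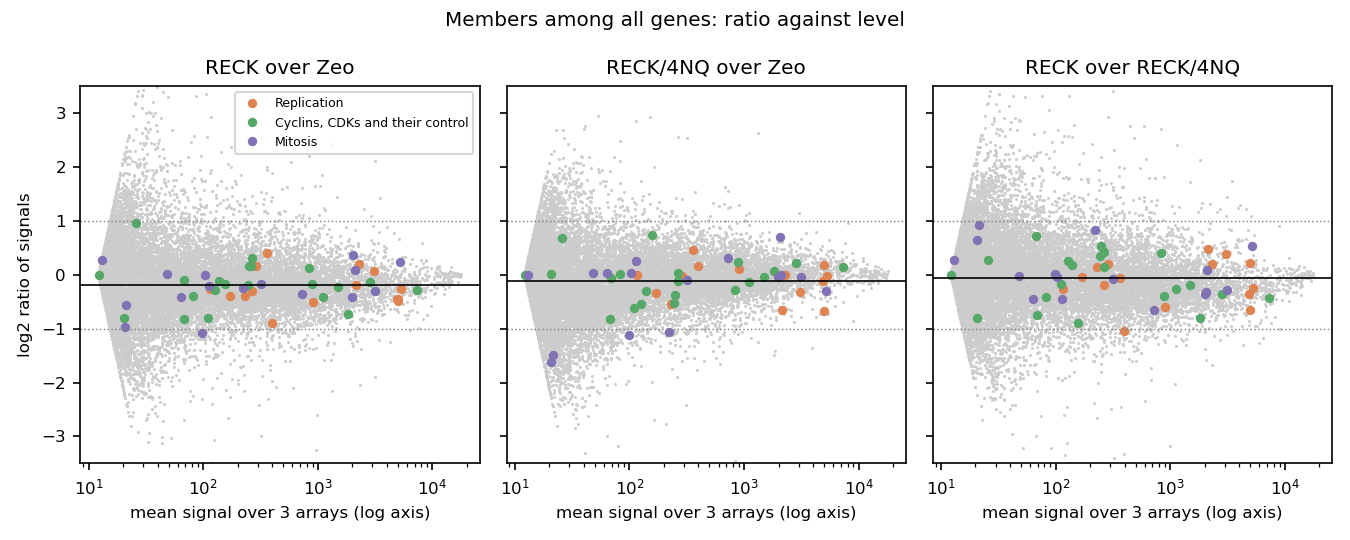
log2 ratio against mean signal over the 3 arrays (log axis) for all genes in grey and members in colour, with dotted lines at 2-fold and the vertical axis limited to 3.5 on each side. Spread narrows as signal grows; the members lie inside the grey cloud, with KIF11 and TTK at the dim end for RECK/4NQ over Zeo.

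Other probe sets gave a partial check. The 52 members had 117 probe sets, 109 of them at or above the floor on at least 1 array, and 17 members had only 1. For members past 1.5-fold, other probe sets moved the same way in 2 of 8 cases in RECK against Zeo, 8 of 13 in RECK/4NQ against Zeo and 7 of 12 in RECK against RECK/4NQ. The opposite way was taken in 2, 4 and 3 cases, and the rest were below the floor on both arrays. The other probe sets of TYMS, CDC25C and AURKA kept the difference named above.

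**Figure D5:**
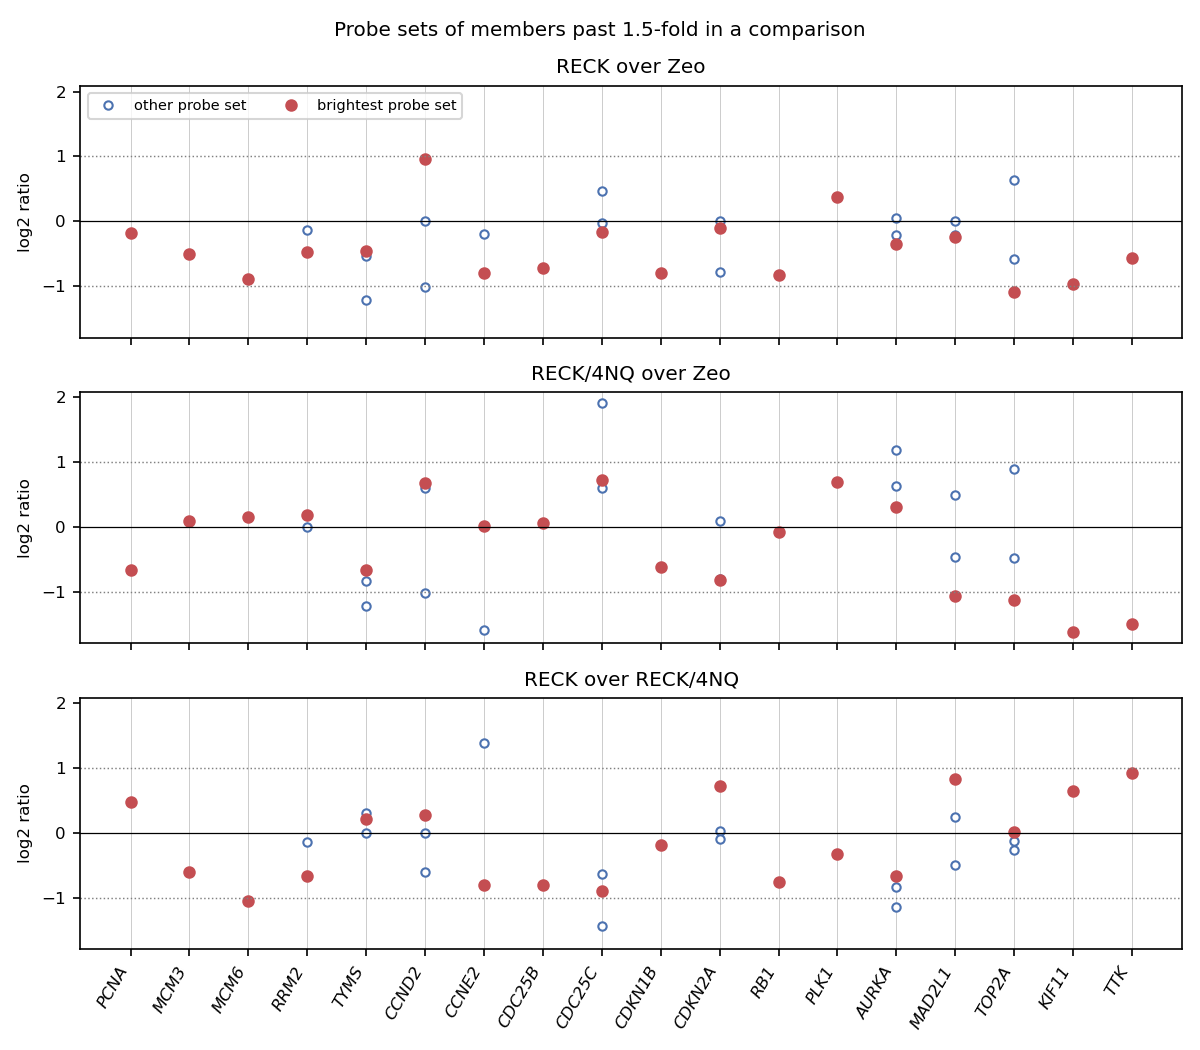
log2 ratio of each probe set above the floor on at least 1 array, for the 18 members past 1.5-fold in a comparison; filled points are the brightest probe set, open points the others. Open points of AURKA, CDC25C and TYMS lie on the side of the filled one for RECK/4NQ over Zeo. In that comparison those of TOP2A, MAD2L1 and CCND2 lie both above and below no difference. CCNE2 has a single open point, at -1.59 there.

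Other genes of the same pathways were taken from 3 fixed lists with 127 genes, of which 125 had a probe set. In RECK against Zeo 120 stayed within 2-fold, 4 were lower (3.2%, against 6.7% of all genes) and 1 higher (0.8%, against 4.03%), and the relative median was -0.04. In RECK/4NQ against Zeo 111 stayed within 2-fold, 13 were lower (10.4%, against 7.13% of all genes) and 1 higher (0.8%, against 2.81%), and the relative median was -0.07. In RECK against RECK/4NQ 115 stayed within 2-fold, 3 were lower (2.4%, against 4.47%) and 7 higher (5.6%, against 5.76%), and the relative median was 0.02. For RECK/4NQ over Zeo the members and these genes lay on opposite sides of the median of all genes, with 32 of 49 members and 43 of 116 of these genes above it. The lists differ in level. At a mean signal of 100 or more, the median was -0.04 for 40 members, -0.14 for 70 of these genes and -0.04 for all genes. From the floor to 100 it was 0.02 for 9 members, -0.46 for 46 of these genes and -0.23 for all genes. Whether the lists differ was not tested.

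Of the 13 genes lower in RECK/4NQ than in Zeo, 8 were among the 50 other mitosis genes (16%), 3 among the 32 other cyclin/CDK genes (9.38%) and 2 among the 43 other replication genes (4.65%), where 7.13% of all genes were lower. SMC4, a condensin subunit, had signals of 168, 125 and 42.8, 3.93-fold lower than in Zeo. The cytokinesis factor ECT2 was at 75.3, 48.5 and 31.8, INCENP, a partner of AURKB, at 100, 62.4 and 41.0, and CEP55, an abscission protein, at 71.9, 66.4 and 31.1. The kinetochore gene NDC80 was low in both transfected lines, at 47.7, 15.2 and 15.7.

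Of 43 other replication genes, 2 were at least 2-fold lower in RECK/4NQ than in Zeo and 0 higher. DBF4, the activator of the CDC7 kinase, read 68.1, 49.0 and 18.7, and ORC4, an origin recognition subunit, 84.2, 59.4 and 26.2, so that both were lowest in RECK/4NQ. RFC5, a clamp loader subunit, was lowest in RECK, at 300, 206 and 435. Of 32 other cyclin/CDK genes, 3 were lower in RECK than in Zeo (9.38%, against 6.7% of all genes) and 0 higher (against 4.03%), and 3 were lower in RECK/4NQ than in Zeo and 0 higher. SKP2, the ubiquitin ligase subunit that targets p27, was at 414, 188 and 303, and the CDK4 and CDK6 inhibitor gene CDKN2D at 83.7, 40.6 and 89.4, both lowest in RECK. CDC14B, a phosphatase gene, was 2.01-fold lower in RECK/4NQ than in Zeo, and RECK read 31.0 where RECK/4NQ read 29.8.

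Most of these lower values in RECK/4NQ were in genes with a dim mean signal. That mean includes the RECK/4NQ array, so a low value there itself moves a gene towards the dim range. SMC4 and TOP2A, at 168 and 164 in Zeo, were both counted in the range below 100. Of 46 other pathway genes with a mean signal from the floor to 100, 12 were at least 2-fold lower in RECK/4NQ than in Zeo, where 13.9% of 7955 genes of that range were, and of 70 with a mean signal of 100 or more, 0 were, against 1.91% of 6327 genes. Among members the counts were 2 of 9 and 1 of 40, with TTK below the floor in its mean. The part of the signal level in the result was not tested. The limit of 100 was chosen after the values were seen.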

How the data were processed

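Total RNA of 3 HT1080 lines was labelled from 8.1 to 15 µg per array, per the labels' protocols. The authors deposited 1 linear intensity per probe set, computed with MAS5 per the submitters' processing notes; for its version and scaling target the entry is "not given in the sources used here". The method subtracts a mismatch estimate, so dim signals are noisy. Precision is limited by the number of arrays, 1 per line.

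Of 54675 probe sets, 62 were controls, 41091 had 1 symbol in the platform annotation, 1801 several and 11721 none listed. The probe set with the highest mean log2 signal stood for a gene. Signals under the floor were raised to it before log2 ratios were taken; with 1 array below the floor the fold is a bound. A gene was counted at 2-fold or 1.5-fold. The spread is 1.4826 times the median absolute deviation. All 53 member symbols were current in RefSeq. Calculations used Python 3.11.15, numpy 2.4.6 and pandas 2.3.3, checked on simulated data. Members and lists were chosen with earlier results of these data known. Named were members past 1.5-fold, below the floor on an array or among the 3 brightest of a group, and up to 4 other pathway genes per list and comparison, measured on both arrays, past 2-fold; the other members were added after their values were seen, to account for all. Alternatives changed the floor, scaling, probe set choice and pseudocount, or subtracted the neighbours' median.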

Additional observations from a re-analysis of the deposited data

How the results depend on the processing

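The relative medians of all members moved by less than 0.1 (log2) under every alternative run, except for RECK/4NQ over Zeo with the mean of all probe sets, which gave -0.02; quantile normalisation also turned that sign, at -0.01. Counts of members past a fold are small and moved more. Each setting is given with the counts that changed by over 1.5 times. Median centring gave 1 member 2-fold higher and 0 lower for RECK over Zeo, and 2 lower at 2-fold and 5 at 1.5-fold for RECK/4NQ over Zeo. Quantile normalisation gave 1 higher and 0 lower at 2-fold for RECK over Zeo, and in RECK against RECK/4NQ 0 lower at 2-fold, 7 higher and 5 lower at 1.5-fold. A common trimmed mean gave 1 higher and 0 lower at 2-fold for RECK over Zeo, and in RECK against RECK/4NQ 1 higher and 0 lower at 2-fold and 5 lower at 1.5-fold. With the floor at the 20th percentile, 1 was higher at 2-fold and 2 at 1.5-fold for RECK over Zeo, with 3 at 2-fold for RECK over RECK/4NQ. With the floor at the 60th percentile, 0 were higher at 1.5-fold for RECK over Zeo, 2 lower at 2-fold for RECK/4NQ over Zeo, with 2 higher at 1.5-fold for RECK over RECK/4NQ. A pseudocount of 16 gave 0 lower for RECK over Zeo, 2 lower for RECK/4NQ over Zeo, with 1 higher for RECK over RECK/4NQ at 2-fold. The mean of all probe sets gave 2 higher and 3 lower at 2-fold and 3 higher at 1.5-fold for RECK over Zeo, 2 higher and 7 lower at 2-fold and 5 higher at 1.5-fold for RECK/4NQ over Zeo. For RECK over RECK/4NQ the mean of all probe sets gave 1 member higher and 0 lower at 2-fold, and 7 higher and 4 lower at 1.5-fold. Without shared probe sets, 0 were higher at 1.5-fold for RECK over Zeo, 2 higher at 2-fold for RECK/4NQ over Zeo, and 1 higher and 3 lower at 2-fold for RECK over RECK/4NQ.

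For members past 1.5-fold, the direction in that comparison reversed only with another choice of probe sets. Smaller ratios could change sign with scaling. The log2 ratio of CCNB1 in RECK against Zeo was -0.14 as deposited and 0.06 relative to all genes. With the mean of all probe sets the log2 ratio of TOP2A was 0.49 for RECK over Zeo and 0.74 for RECK/4NQ over Zeo. In RECK against RECK/4NQ it was 0.80 for CCNE2 and -0.44 for CDKN2A. Without shared probe sets it was 0.50 for MAD2L1 in RECK/4NQ over Zeo, and -0.50 for MAD2L1 and 1.39 for CCNE2 in RECK over RECK/4NQ. These means were taken before the floor was applied. Signals below it thus entered unchanged, such as 1.65 for a TOP2A probe set in Zeo. The cause was not tested. The share of higher genes among all genes past 2-fold was 37.5% as deposited, 50.9% after median centring and 53.8% after quantile normalisation for RECK over Zeo, and 28.3%, 44.1% and 45.9% for RECK/4NQ over Zeo. In RECK against RECK/4NQ it was 56.3%, and 66% with a common trimmed mean, which gave 52.9% for RECK over Zeo. No paired analysis was possible because each line has 1 array and no replicate number, and for the same reason no array could be left out.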
